A study of Mus musculus with 21 samples.

Results

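The genes described here make, hold, bind or cut hyaluronan in the stroma of the mouse colon. They are 8 genes taken by symbol, Has1, Has2, Has3, Hapln1, Vcan, Cd44, Tnfaip6 and Hyal2, of 31053 genes in the single-cell count matrix, and all 8 symbols were found there. Their transcripts were counted in 1 droplet library of stromal cells sorted as gp38+CD90+ from the colon of a wild-type C57BL/6 female of 12 weeks taken at D3 of 2% DSS (dextran sulfate sodium), which damages the gut lining. Their open chromatin was read from ATAC-seq peak lists of 4 sorted colon populations of male C57BL/6 mice of 12 weeks, for which no DSS is given: MRISC, CD34 SP, CD138 and Myofibroblast. MRISC stands for Map3k2-regulated intestinal stromal cells, CD34 SP for single-positive cells, and the CD138 cells were CD34-CD138+. All 4 were gated as negative for CD45, Epcam and CD31 and positive for gp38, with 2 libraries each but 1 list of all peaks and 1 list of population-specific peaks. Which antibodies set MRISC apart is not stated in the labels. RNA of whole colon from Map3k2-/- and wild-type mice of 16 weeks, given 2% DSS to D1 or H2O (12 samples), is not analysed here, so nothing below compares genotypes or DSS with water.

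Hyaluronan is a long unbranched sugar chain that is spun out through the plasma membrane by the synthases Has1, Has2 and Has3 from UDP-glucuronic acid and UDP-N-acetylglucosamine. Outside the cell it is held in the matrix by link protein (Hapln1) and by the large proteoglycan versican (Vcan), and the enzyme TSG-6 (Tnfaip6) moves the heavy chains of inter-alpha-inhibitor onto it, a product that is also bound by pentraxin 3 (Ptx3). Cells bind it through the receptor CD44, and hyaluronidases such as Hyal2 cut it. Hyaluronan-rich matrix swells tissue and is known to build up in the inflamed gut.

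After filters 11376 cells were left, in which the median depth was 6052 UMIs (counted molecules) and the median number of genes 2288. Clusters were made without the 8 genes and without a wider list of hyaluronan genes, so that none of them could define a cluster. Of 11 clusters, 8 were stromal (11025 cells), and 3 were led by plasma cell, cytotoxic or epithelial genes (351 cells). Of the stromal ones, 6 carried enough fixed markers for a name, and the Cxcl13 Fgf12 and Spock3 Aldh3a1 clusters are called by their leading genes. The sort markers were read in most but not all cells, with a UMI of Pdpn (gp38) in 72.4% and of Thy1 (CD90) in 49.99% of kept cells, while Ptprc (CD45) was read in 0.123%, Pecam1 (CD31) in 0.914% and Epcam in 1.00%. Levels are pooled CPM, the UMIs of a gene over all UMIs of the cluster on the usual CPM scale, with 95% Poisson intervals that cover counting error only. With 1 library there is no replicate and no test, so a gene is called higher or lower in a cluster only by size: at least 2-fold against all other kept cells, with at least 20 CPM on the higher side. Free RNA from other cells made up an estimated 13.7% of the UMIs in stromal cells by 26 immune and epithelial markers together. This estimate rests mostly on 3 plasma cell genes, which gave 617 of the 791 CPM of these markers in empty droplets. Single marker lists gave 9.46% (B cell), 11.04% (plasma cell), 16.6% (epithelium), 35.8% (macrophage) and 49.8% (T cell), and the neutrophil list was too low in empty droplets (0.231 CPM) to give one. The level free RNA could give is set beside the low values.

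Of the 3 synthases, Has1 was concentrated in 1 cluster, Has2 was spread at low level over 3 clusters, and Has3 was almost absent. Has1 lies on chr17:17843323-17855205, minus strand (mm10). Its promoter, from RefSeq on GRCm38.p6 (chr17:17855139-17855438, minus strand), is shown because this gene had the largest difference between clusters of the 8. It runs from 250 bases before the start to 50 after it, and capitals mark the words searched, here TGACGTCA, the cyclic AMP response element (CRE), with its first base 83 before the start.
Has1 promoter: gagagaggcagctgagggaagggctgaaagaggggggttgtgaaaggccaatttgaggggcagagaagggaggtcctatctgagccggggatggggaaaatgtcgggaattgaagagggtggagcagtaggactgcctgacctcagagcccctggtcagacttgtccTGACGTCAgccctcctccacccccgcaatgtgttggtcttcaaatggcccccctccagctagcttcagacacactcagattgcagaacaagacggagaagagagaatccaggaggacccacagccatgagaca
The CRE word is in 1.88% of 27025 RefSeq promoters of this length, and of the 6 members with a promoter in the table it is in 1. A match is a string of letters and no evidence of binding.

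The pooled level of Has1 was 594 CPM (578 to 611) in the CD34+CD81+ adventitial fibroblast-like cluster, against 24.3 CPM in all other cells, a 24.4-fold difference. This cluster of 1347 cells is led by Ptx3, Pcolce2 and Ebf1, carries 7 of 10 fixed markers of that type (Cd81, Pi16, Ackr4, Grem1, C3, Ly6c1 and Mfap5), and held 75.3% of all Has1 UMIs of the library. Cd34 was not particular to it, at 647 CPM against 687 CPM in the Cxcl13 Fgf12 cluster. The mesothelium-like cluster (89 cells) was next with 84.2 CPM (65.4 to 107) of Has1, and its interval touched neither neighbour. A single cell held 23 of its 68 Has1 UMIs, and without that cell the level was 56.8 CPM (41.4 to 76.0). This cluster also passed the marker rule for 3 adventitial genes (Cd81, C3 and Dpp4), no doublets were removed, and their part in its level was not tested. Then came the inflamed fibroblast-like cluster with 31.8 CPM, the lamina propria fibroblast-like cluster with 29.7, the smooth muscle and myofibroblast-like cluster with 25.1, and the Cxcl13 Fgf12 cluster with 22.1, each overlapping the next. The Spock3 Aldh3a1 cluster had 12.1 CPM and the crypt-top (telocyte-like) fibroblast-like cluster 9.56 CPM. Free RNA could give 22.3 CPM of Has1, so the last 3 of these levels lie at or under it, and only the adventitial and mesothelium-like clusters stood more than 2-fold above it. At the macrophage rate it could give 58.3 CPM and at the T cell rate 81.1 CPM, and then the adventitial cluster alone did.

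Within the adventitial cluster, Has1 was uneven from cell to cell. A UMI was read in 52.1% of its cells (49.4 to 54.8, exact binomial interval), and in 44.6% after every cell was thinned to 3000 UMIs. The epithelial cluster led by Reg3g, which should lack the gene, had 1 positive cell of 24 (4.17%) at a median depth of 20290 UMIs, against 5578 UMIs in the adventitial cluster. Of all kept cells, 167 held 10 or more Has1 UMIs, and 151 of these lay in the adventitial cluster. The highest cell held 81, and the 114 cells at the top, 1% of the library, held 43.6% of its Has1 UMIs. Has1 was called higher in the adventitial cluster, as were 2.21% of 12469 tested genes. It was called lower in 6 clusters, all but the mesothelium-like one, but the other cells there include the adventitial cluster with most of its UMIs. Without that cluster among the other cells, Has1 was called lower in 2 clusters, the Spock3 Aldh3a1 (12.1 against 27.0 CPM) and the crypt-top (9.56 against 24.5 CPM), and higher in the mesothelium-like one (84.2 against 23.6 CPM). Of all tested genes 1.16% were called lower in the lamina propria cluster, 1.16% in the Spock3 Aldh3a1, 1.19% in the inflamed, 1.93% in the Cxcl13 Fgf12, 2.91% in the crypt-top and 3.18% in the smooth muscle cluster.

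Has2 (chr15:56665627-56694539, minus strand) gave 864 UMIs in 745 cells. Its level was 20.8 CPM (18.7 to 23.0) in the Cxcl13 Fgf12 cluster, against 8.96 CPM in all other cells, 2.32-fold, in a cluster where 0.209% of genes were called higher. The adventitial cluster followed with 16.5 CPM and the Spock3 Aldh3a1 cluster with 13.6, and each of these 3 overlapped its neighbour. The call did not hold without the cell filter, where clusters were drawn differently and the highest level was 20.01 CPM, against 11.5 CPM in all other cells, 1.74-fold. The other 5 clusters lay between 2.48 and 6.87 CPM, against 1.36 CPM that free RNA could give. Has3 (chr8:106870242-106884566, plus strand) was read as 6 single UMIs in 6 cells of 11376, or 0.0527%, spread over 5 clusters, so its level could not be ordered between clusters at this depth.

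The link and scaffold genes followed other clusters than Has1. Hapln1 (chr13:89539796-89611652, plus strand) was at 80.5 CPM (75.4 to 85.9) in the Spock3 Aldh3a1 cluster, against 19.5 CPM in all other cells, 4.12-fold, where 0.249% of genes were called higher. A Hapln1 UMI was read in 33.3% of the cells of that cluster, and in 18.3% after thinning, against 12.5% of the 24 deeper epithelial cells unthinned. The Cxcl13 Fgf12 cluster had 42.3 CPM, above the other clusters and below the Spock3 Aldh3a1 cluster with no overlap of the intervals. The other 6 clusters lay between 1.91 and 13.02 CPM, the adventitial one at 6.66, and Hapln1 was called lower in all 6. Of all tested genes 2.94% were called lower in the adventitial and 5.79% in the mesothelium-like cluster.

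Vcan (chr13:89655312-89742509, minus strand) was the most evenly spread of the scaffold genes, with a UMI in 64.6% of kept cells, against 33.3% of the epithelial cells. Its level was 307 CPM (299 to 316) in the Cxcl13 Fgf12 cluster and 289 CPM in the Spock3 Aldh3a1 cluster. The lamina propria and inflamed clusters each had 214 CPM, the crypt-top cluster 143, the adventitial cluster 137, the smooth muscle cluster 113 and the mesothelium-like cluster 38.4. No cluster reached the 2-fold mark upward. It was called lower in the smooth muscle and mesothelium-like clusters, at 0.470 and 0.168 of the level in all other cells. The clusters with most Vcan and Hapln1 were thus the same pair in reverse order, and both were among the 3 highest for Has2, whereas the adventitial cluster was sixth for Vcan and seventh for Hapln1.

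The promoters of this pair are shown because the genes are neighbours on chromosome 13, with 43.7 kb and 0 protein-coding genes between their ends. The Vcan promoter (chr13:89742463-89742762, minus strand) has 2 SP1 words, GGGCGG or its reverse complement, 219 and 10 bases before the start. The Hapln1 promoter (chr13:89540386-89540685, plus strand) has 1 RUNX word, TGTGGT, 160 bases before the RefSeq start, which lies inside the gene as GENCODE draws it. SP1 words are in 35.9% and RUNX words in 16.9% of all RefSeq promoters of this length.
Vcan promoter: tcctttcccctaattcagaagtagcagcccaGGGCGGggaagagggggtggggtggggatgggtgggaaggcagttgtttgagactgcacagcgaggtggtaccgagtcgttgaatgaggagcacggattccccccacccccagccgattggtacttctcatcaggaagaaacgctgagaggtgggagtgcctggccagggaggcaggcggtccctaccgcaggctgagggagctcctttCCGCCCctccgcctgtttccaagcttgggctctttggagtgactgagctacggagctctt
Hapln1 promoter: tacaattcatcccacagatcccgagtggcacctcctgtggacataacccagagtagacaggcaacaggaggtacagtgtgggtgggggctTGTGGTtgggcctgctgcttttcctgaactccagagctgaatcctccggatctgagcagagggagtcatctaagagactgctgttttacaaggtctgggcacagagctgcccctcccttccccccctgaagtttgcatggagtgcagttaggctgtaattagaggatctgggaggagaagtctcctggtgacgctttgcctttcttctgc
Capitals mark those words, and no searched word in capitals is common to the pair.

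Cd44, the receptor, was highest in contractile and crypt-top cells. Its level was 160 CPM (151 to 169) in the smooth muscle and myofibroblast-like cluster, against 51.7 CPM in all other cells, 3.10-fold, where 3.76% of genes were called higher. The crypt-top cluster had 147 CPM (116 to 184), 2.36-fold above all other cells, where 2.92% of genes were called higher, and the intervals of these 2 clusters overlapped. The inflamed cluster had 90.1 CPM, the lamina propria and adventitial clusters 54.8 each, and the Spock3 Aldh3a1 cluster 46.8. The Cxcl13 Fgf12 cluster, highest in Has2 and Vcan, had 28.2 CPM of Cd44, or 0.379 of the level in all other cells. The mesothelium-like cluster had 22.3 CPM.

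Tnfaip6, which encodes the heavy chain transferase TSG-6, was highest where Has1 was. It lies on chr2:52038009-52056686, plus strand. Its promoter (chr2:52037863-52038162) is shown beside that of Cd44 (chr2:102901616-102901915, minus strand), a gene of the same chromosome with another cluster order.
Tnfaip6 promoter: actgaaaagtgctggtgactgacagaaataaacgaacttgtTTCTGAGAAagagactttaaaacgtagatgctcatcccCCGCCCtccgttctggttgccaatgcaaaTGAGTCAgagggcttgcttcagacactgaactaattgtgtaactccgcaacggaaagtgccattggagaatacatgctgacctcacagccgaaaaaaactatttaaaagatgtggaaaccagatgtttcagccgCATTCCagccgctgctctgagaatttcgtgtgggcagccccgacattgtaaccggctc
Cd44 promoter: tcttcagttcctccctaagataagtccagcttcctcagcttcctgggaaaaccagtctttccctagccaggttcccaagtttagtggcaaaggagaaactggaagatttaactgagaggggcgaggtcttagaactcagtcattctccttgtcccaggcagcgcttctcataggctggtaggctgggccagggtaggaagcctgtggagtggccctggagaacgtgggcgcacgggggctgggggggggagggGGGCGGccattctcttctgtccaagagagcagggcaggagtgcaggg
Capitals in the Tnfaip6 promoter mark a STAT word (TTCNNNGAA) 209, an SP1 word 171, an AP-1 word (TGANTCA) 142 and a TEAD word (GGAATG) 8 bases before the start, and in the Cd44 promoter an SP1 word at base 4. Of all RefSeq promoters of this length, 8.47% hold the STAT word, 7.93% the AP-1 word and 14.6% the TEAD word.

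The level of Tnfaip6 was 1308 CPM (1284 to 1334) in the adventitial cluster, against 225 CPM in all other cells, 5.82-fold. Its UMIs were read in 72.1% of the cells of that cluster (64.1% after thinning), against 50% of the epithelial cells (8.70% after thinning). The highest cell held 116, and the cluster held 42.1% of all Tnfaip6 UMIs. The inflamed cluster was next with 346 CPM, then the Spock3 Aldh3a1 cluster with 271, the lamina propria cluster with 205 and the Cxcl13 Fgf12 cluster with 184. The smooth muscle cluster had 166 CPM, the mesothelium-like cluster 136 and the crypt-top cluster 80.3. Unlike Has1, Tnfaip6 stood above the 64.8 CPM that free RNA could give in 7 clusters by interval, and in the crypt-top cluster the interval (57.9 to 109) reached down to it. The number of clusters above free RNA by interval was 5 at the macrophage rate (169.7 CPM) and 3 at the T cell rate (236 CPM). Hyal2 (chr9:107567945-107572779, plus strand), a membrane-anchored hyaluronidase, varied least, between 9.87 CPM in the adventitial and 18.7 CPM in the Spock3 Aldh3a1 cluster, and was not called in any.

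**Figure D1:**
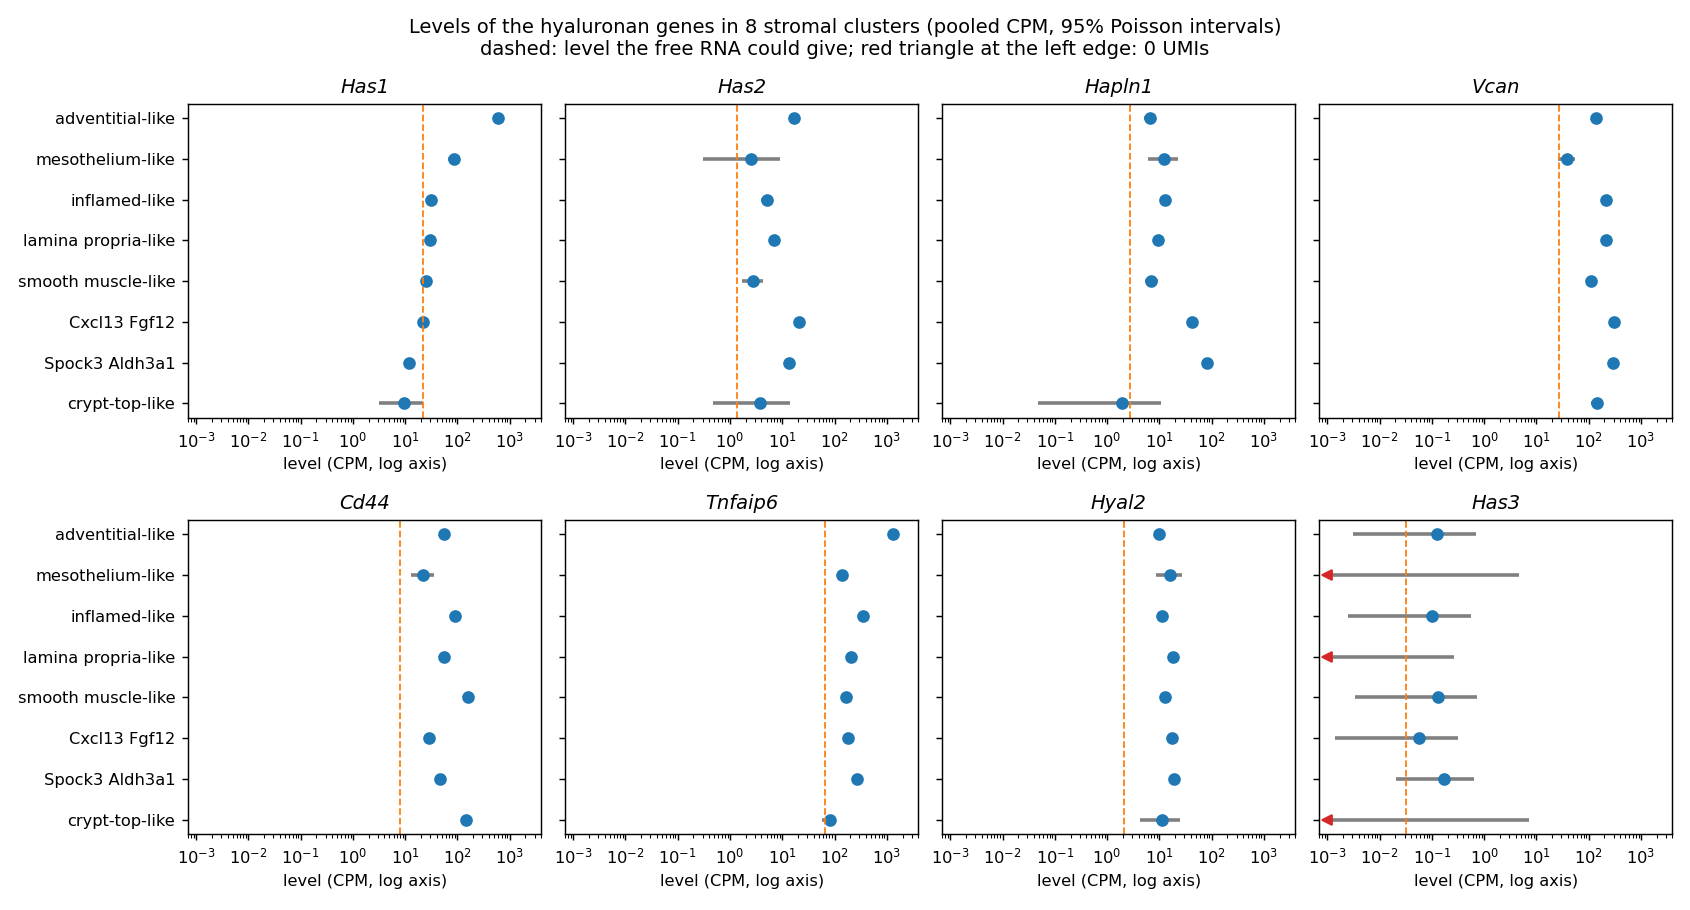
Level of each of the 8 genes (pooled CPM, log axis) in the 8 stromal clusters, with 95% Poisson intervals as bars; the dashed line is the level free RNA could give. Has1 and Tnfaip6 peak in the adventitial-like cluster (594 and 1308 CPM), Hapln1 in the Spock3 Aldh3a1 cluster (80.5 CPM) and Cd44 in the smooth muscle-like cluster (160 CPM).

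In all, 7 of the 8 genes reached the 1 CPM needed to be tested (all but Has3), of which 5 were called higher in at least 1 stromal cluster (Has1, Has2, Hapln1, Cd44, Tnfaip6), as were 14.2% of all tested genes, and 5 lower (Has1, Hapln1, Vcan, Cd44, Tnfaip6), as were 10.2%. The same 5 were called lower when the adventitial cluster was left out of the other cells, Tnfaip6 then in the crypt-top cluster alone. Hyal2 was too low to be called in either direction in these clusters, and Has2 was too low to be called lower. No member was called higher in the lamina propria cluster, where 0.441% of genes were, in the inflamed cluster, where 1.54% were, or in the mesothelium-like cluster, where 5.65% were. The wider list of 48 hyaluronan genes had 39 in the matrix outside the members, of which 19 were tested. Of these 19, 5 were called higher, 6 lower and 12 neither, beside the 14.2% and 10.2% of all tested genes. Those called higher were Ugdh, Gfpt2, Uap1 and Ptx3 in the adventitial cluster and Cemip in the inflamed cluster. Cemip, which is needed for hyaluronan breakdown in skin fibroblasts, was at 35.4 CPM in the inflamed cluster, against 1.050 CPM in all other cells, 33.7-fold.

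Some of the enzymes that make the sugar precursors were called higher in the adventitial cluster, like Has1, and others were not. Ugdh, which oxidises UDP-glucose to UDP-glucuronic acid, was at 576 CPM in the adventitial cluster, against 193 CPM in all other cells, 2.98-fold. Gfpt2, 1 of the pair of enzymes for the first step of the hexosamine route, was at 356 CPM, against 71.1 CPM, 5.01-fold. Uap1, which makes UDP-N-acetylglucosamine in the last step, was at 162 CPM, against 64.2 CPM, 2.52-fold. The other 4 precursor enzymes, Ugp2, Gfpt1, Gnpnat1 and Pgm3, were not called in any cluster. Ugp2 was also highest in the adventitial cluster, at 158 CPM, against a median of 85.9 CPM over the 8 clusters. It stayed under 2-fold against all other cells. Gfpt1, the other enzyme of the first step, stayed between 36.1 and 56.0 CPM over the 8 clusters. Pgm3, with at most 19.1 CPM, was too low to be called. Ptx3 was at 451 CPM in the adventitial cluster, against 4.17 CPM in all other cells, 108-fold, with a UMI in 16.8% of the cells of the cluster.

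Whether these transcripts were in the same cells was read in 10640 cells thinned to 3000 UMIs, since deep cells show more of every gene. Of 21 pairs of members, 5 were found together more often and 5 less often than the product of their shares gives, by interval. The same count over pairs of other genes was not made, so these counts have no background share beside them. The intervals cover the share of cells with both genes, with the product held fixed. The largest ratio was that of Has1 with Tnfaip6, at 1.57 (1.45 to 1.70) with 600 cells holding both. The others above 1 were Has1 with Has2 at 1.48, Hapln1 with Hyal2 at 1.41, Has2 with Vcan at 1.24 and Hapln1 with Vcan at 1.21. The lowest was Has1 with Hyal2 at 0.482, and Has1 with Hapln1 was at 0.559. Fewer pairs stood out inside clusters, which hold fewer cells. There, Has1 with Tnfaip6 kept an interval above 1 in the adventitial cluster (1.24, 1.14 to 1.34) and in the lamina propria cluster (1.40, 1.04 to 1.85), and the 1 other such pair was Vcan with Cd44 in the adventitial cluster (1.38, 1.07 to 1.73).

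In the adventitial cluster, Tnfaip6 climbed step by step with Has1 in the same cell. Cells with 0, 1, 2 to 4 and 5 or more Has1 UMIs of 3000 (612, 155, 206 and 131 cells) had on average 1.95, 3.17, 4.995 and 9.07 UMIs of Tnfaip6. The 4 intervals did not overlap, but they cover counting error only and not the spread between cells. The share of cells with Tnfaip6 ran 51.8%, 69.7%, 79.1% and 91.6%. The other stromal clusters, pooled, showed the same order at lower levels, with 0.644, 0.904, 1.46 and 4.14 UMIs of Tnfaip6, the last from 14 cells. Their Tnfaip6 levels ran from 80.3 to 346 CPM. All but the mesothelium-like one had less than 2-fold the 22.3 CPM of Has1 that free RNA could give. The part of free RNA, doublets and the mix of clusters in this order was not tested. Vcan had no such order (28.6%, 32.3%, 28.6% and 33.6% of cells), nor did Cd44 beyond its intervals (12.1%, 16.1%, 19.4% and 19.1%). The share with Has2 was 3.59%, 4.52%, 5.34% and 9.16%, with intervals that overlapped between neighbouring steps.

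The precursor enzymes called higher climbed along the same steps of Has1. Ugdh was at 415, 458, 809 and 1117 CPM, Gfpt2 at 261, 326, 505 and 593 CPM, and Uap1 at 114, 145, 246 and 264 CPM. Neighbouring intervals of Gfpt2 did not overlap over the whole adventitial cluster. Those of Ugdh and Uap1 overlapped between 0 and 1 Has1 UMIs, and those of Uap1 also between 2 to 4 and 5 or more. Ugp2 (151, 200, 171 and 128 CPM), Gfpt1 (35.5, 43.5, 38.9 and 38.4 CPM) and Gnpnat1 (38.9, 35.8, 40.3 and 45.4 CPM) had no such order. Pgm3 lay between 9.67 and 20.1 CPM. Ptx3 was at 178, 176, 818 and 1462 CPM. The cells at the top step were also deeper, with a median of 7628 UMIs against 6287 at 0 Has1 UMIs, and the part of depth in the CPM values was not tested.

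**Figure D2:**
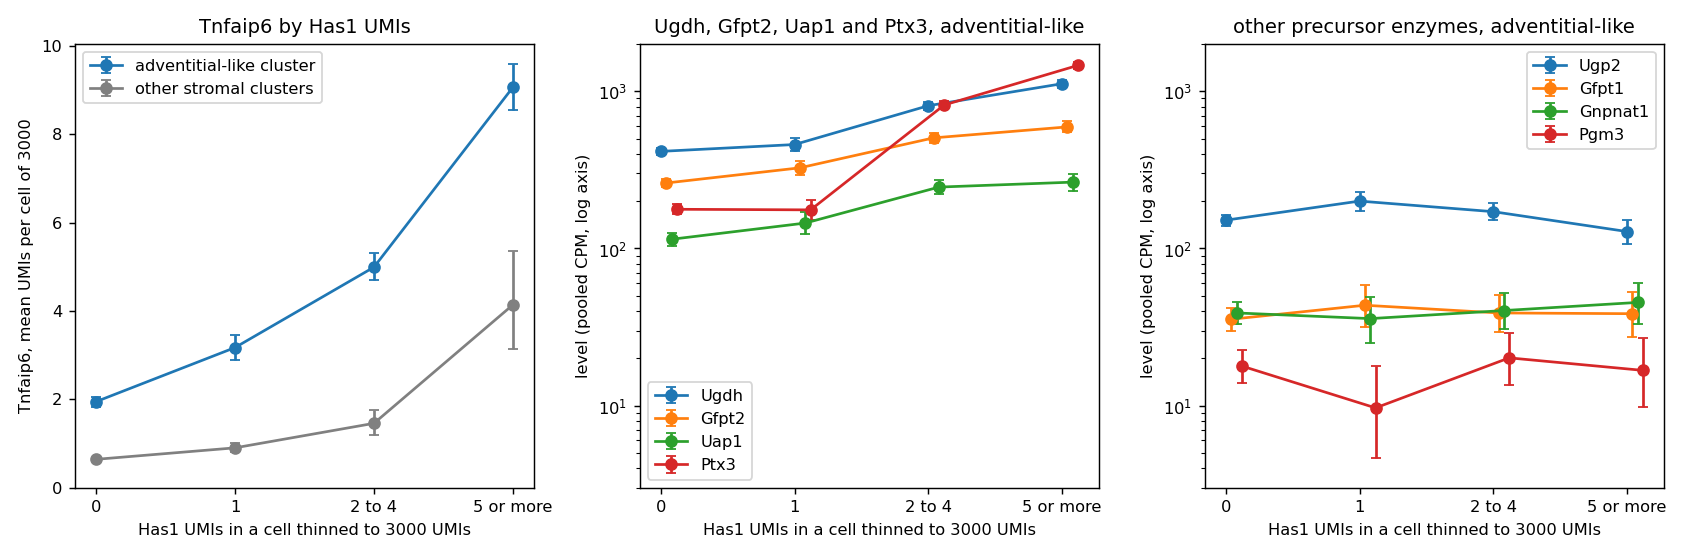
Levels by the number of Has1 UMIs in a cell thinned to 3000 UMIs, with 95% Poisson intervals: mean Tnfaip6 UMIs in the adventitial-like and the other stromal clusters (left), and pooled CPM on a log axis of 4 genes called higher (middle) and 4 other precursor enzymes (right). Tnfaip6 runs over 1.95, 3.17, 4.995 and 9.07 UMIs in the adventitial-like cluster, and Ugdh over 415, 458, 809 and 1117 CPM, while Gfpt1 stays between 35.5 and 43.5 CPM.

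The adventitial cluster was itself mixed. With finer clustering (resolution 1.0, 19 clusters) it divided into a Ptx3 Ctla2a cluster of 485 cells and an Npy1r Ackr4 cluster of 873 cells that kept the adventitial name. Has1 was high in both, at 657 CPM in the Ptx3 Ctla2a and 540 CPM in the Npy1r Ackr4 cluster, and so was Tnfaip6, at 1710 and 995 CPM. Ptx3 was at 987 CPM in the Ptx3 Ctla2a cluster, against 52.2 CPM in the Npy1r Ackr4 cluster, and Has2 at 22.9 CPM, against 11.6 CPM, with no overlap of the intervals. Inside each, Tnfaip6 kept its order along the steps of Has1, and the enzymes did so in part. Over 0, 1, 2 to 4 and 5 or more Has1 UMIs, Tnfaip6 averaged 2.54, 3.63, 6.11 and 11.7 UMIs in the Ptx3 Ctla2a cluster and 1.55, 2.98, 4.10 and 7.01 UMIs in the Npy1r Ackr4 cluster. Ugdh was at 423, 572, 969 and 1367 CPM in the Ptx3 Ctla2a cluster and at 399, 403, 660 and 858 CPM in the Npy1r Ackr4 cluster, where the first 2 steps overlapped. Uap1 was at 119.7, 178, 319 and 286 CPM in the Ptx3 Ctla2a cluster, with no rise at the top step, and at 108, 129, 177 and 241 CPM in the Npy1r Ackr4 cluster, where each step overlapped the next. Gfpt2 was at 304, 471, 693 and 763 CPM in the Ptx3 Ctla2a cluster, where the last 2 steps overlapped. In the Npy1r Ackr4 cluster Gfpt2 was at 224, 263, 329 and 418 CPM, and each step overlapped the next.

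Over 9 clusters of at least 50 cells, the gene pairs with the highest correlations of log2(CPM + 1) among the members were Has1 with Tnfaip6 (0.78), Has2 with Vcan (0.72) and Hapln1 with Hyal2 (0.67). Of 7799 genes, those most like Has1 were 1700019D03Rik (0.98), Inmt (0.97) and Klf2 (0.96), and those most like Tnfaip6 were Sned1 (0.96), Prrx1 (0.95) and Wisp2 (0.93). Klf2, a transcription factor, was at up to 2335 CPM and down to 616 CPM in these clusters. For Vcan they were Grk5 (0.99), Hfe (0.98) and Csf1 (0.97). These are descriptions over few clusters of 1 library.

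Chromatin at the 8 genes was open in all 4 sorted populations, but at Has1 and Tnfaip6 far more of it was open in MRISC and CD34 SP. A peak within 1 kb of any annotated start of the gene was found in all 4 populations for 8 of 8 members, where 59.3% of 21938 protein-coding genes have one. These starts include inner ones. The only such Hapln1 peak in Myofibroblast was centred 45509 bases into the gene, and the only such Has3 peak in CD138 at 1890 bases. The Hapln1 promoter printed above overlapped a peak in CD34 SP alone, and the printed Has1 promoter in all but Myofibroblast. The lists were made from sorted cells in bulk, so a peak in few cells and a weak peak in all cells cannot be told apart. Depth is unknown, and the spread between the 2 libraries of a population could not be measured. MRISC had 177054 peaks and CD34 SP 143411, against 216805 for CD138 and 179351 for Myofibroblast, covering 66.3, 67.6, 53.3 and 42.4 Mb of the genome.

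The Has1 window, the gene with 10 kb on both sides, held 22 peaks in MRISC and 27 in CD34 SP, against 5 in CD138 and 8 in Myofibroblast. Peaks covered 47.2% of it in MRISC and 44.4% in CD34 SP, against 4.93% in CD138 and 7.11% in Myofibroblast. The Tnfaip6 window held 22 peaks in MRISC and 28 in CD34 SP, against 5 in CD138 and 7 in Myofibroblast, covering 30.2% and 33.4%, against 3.196% and 4.74%. Peaks of the first pair of populations over the second thus came to 3.77-fold for Has1 and 4.17-fold for Tnfaip6, and covered bases to 7.61-fold and 8.005-fold. Of 15984 genes with at least 10 peaks, 4.57% reached 2-fold by peaks and 0.475% reached 5-fold by covered bases, with medians of 0.944 by peaks and 1.47 by covered bases. Has1 lay at the 99.7th and Tnfaip6 at the 99.8th percentile of these genes by peaks. The 2-fold mark was set after the peak counts were seen. The Has1 window also reaches Spaca6, where part of its peaks lay in each population. In the gene body alone, MRISC and CD34 SP together had 23 peaks at Has1, against 3 in the other pair. At Tnfaip6 they had 38, against 7.

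The other 6 members stayed under 2-fold by peaks. Has2 had 12 peaks in MRISC and 15 in CD34 SP, against 13 in CD138 and 7 in Myofibroblast, and its promoter peaks lie also at Has2os, an antisense gene. Cd44 had 29 and 50, against 32 and 26, and of the 50 peaks in CD34 SP, 30 were specific to it, where 34.6% of all its peaks are. Above the median score, 4 of 19 were. Vcan had 13 and 13, against 16 and 10, Hapln1 5 and 7, against 5 and 3, Has3 7 and 7, against 8 and 7, and Hyal2 10 and 10, against 9 and 14. Their folds ran from 0.870 (Hyal2) to 1.5 (Hapln1). By covered bases they ran from 1.59 (Vcan) over 1.96 (Has3) to 2.39 (Has2, at the 91.8th percentile), against the median of 1.47 over all genes. The windows of Has3 and Hyal2 reach other genes. In each population the best-scored peak lay at Chtf8 and Utp4 for Has3 and at Tusc2 for Hyal2. In the gene body alone, MRISC and CD34 SP together had 2 peaks at Hyal2, against 5 in the other pair, and 8 at Has3, against 5. Vcan had its best-scored peaks at its start or within 3 kb of it in each population, above the 97th percentile of each list. Between the ends of Hapln1 and Vcan lay 1 peak in MRISC and 1 in CD34 SP, against 5 in CD138 and 2 in Myofibroblast.

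**Figure D3:**
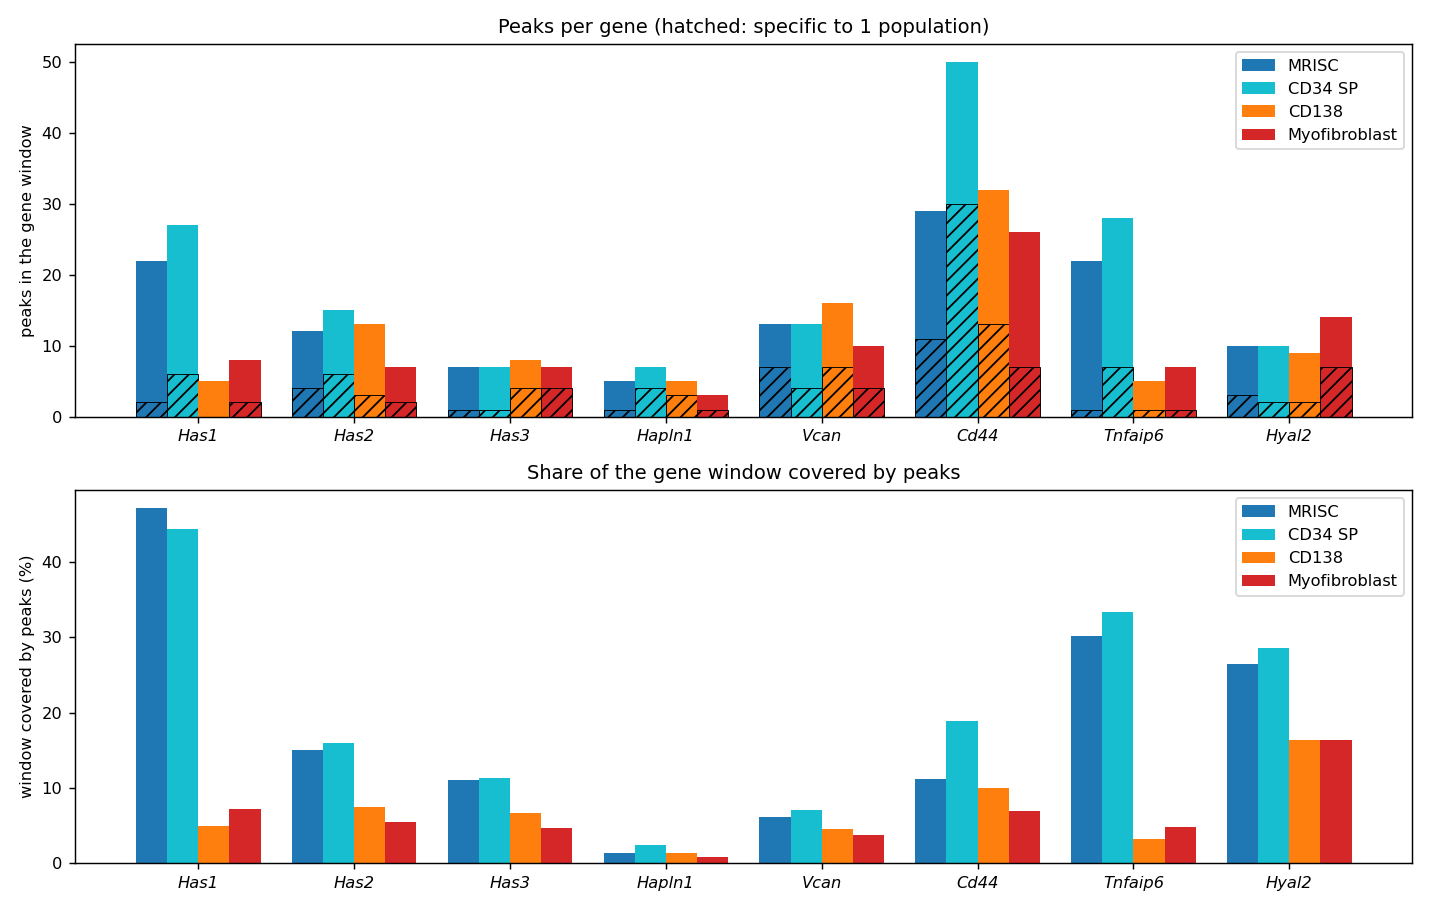
Peaks in the window of each gene (top, hatched where specific to 1 population) and share of the window covered by peaks in percent (bottom), for MRISC, CD34 SP, CD138 and Myofibroblast. Has1 is covered to 47.2% and 44.4% in MRISC and CD34 SP, against 4.93% and 7.11% in CD138 and Myofibroblast.

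At both genes much of the difference lay outside the promoter. When overlapping peaks of the 4 lists were joined, the Has1 window held 26 regions, of which 10 (38.5%) were open in MRISC and CD34 SP and in neither other population. The Tnfaip6 window held 30 regions, of which 14 (46.7%) had that pattern. Of all 478556 regions 3.46% had it. Over all members, 71.7% of the MRISC peaks were shared with CD34 SP (46.6% of all peaks of that list), and in the other direction 56.1% (55.0% of all). With CD138, 38.3% of the MRISC member peaks overlapped (36.5% of all) and 31.8% of the CD34 SP member peaks (46.5% of all). Only 2 of the Has1 regions and 3 of the Tnfaip6 regions were open in all 4 populations, as were 7.49% of all regions.

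The scores rank peaks within a list, and ranks from lists of different lengths show no change between populations. The Tnfaip6 peak over the start was at the 97.0th percentile of its own list in MRISC, the 94.7th in CD34 SP, the 93.6th in CD138 and the 95.6th in Myofibroblast. At Has1, MRISC had 1 promoter peak of 1348 bases (96.8th percentile of its list) and CD34 SP 1 of 1285 bases (84.6th). CD138 had 2, of 53 bases (8.97th) and 157 bases (46.8th), and Myofibroblast had 2, of 141 bases (38.9th) and 215 bases (69.7th). The best-scored peak of the Has1 window in each population was centred about 17 kb downstream of the start, at Spaca6, above the 99th percentile of each list. It was open everywhere and so is not a difference between populations.

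The central 200 bases of 3 distal peaks are shown as the sequence behind these counts, read from GRCm38. The first is a Has1 peak centred at -7434 bases from the start, upstream, open in MRISC and CD34 SP (chr17:17862540-17862739, minus strand). The next is a Tnfaip6 peak 20450 bases downstream of the start with the same pattern (chr2:52058360-52058559, plus strand), and the last is the Tnfaip6 intron peak at 4769 bases, open in all 4 populations (chr2:52042679-52042878, plus strand).
Has1 peak open in MRISC and CD34 SP: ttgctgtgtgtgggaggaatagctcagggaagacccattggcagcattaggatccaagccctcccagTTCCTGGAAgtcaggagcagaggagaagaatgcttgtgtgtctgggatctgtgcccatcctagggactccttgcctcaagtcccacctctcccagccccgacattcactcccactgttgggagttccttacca
Tnfaip6 peak open in MRISC and CD34 SP: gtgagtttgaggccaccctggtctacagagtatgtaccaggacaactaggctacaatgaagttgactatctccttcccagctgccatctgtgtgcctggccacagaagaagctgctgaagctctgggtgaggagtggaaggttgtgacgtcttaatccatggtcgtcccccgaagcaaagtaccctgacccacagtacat
Tnfaip6 best-scored distal peak: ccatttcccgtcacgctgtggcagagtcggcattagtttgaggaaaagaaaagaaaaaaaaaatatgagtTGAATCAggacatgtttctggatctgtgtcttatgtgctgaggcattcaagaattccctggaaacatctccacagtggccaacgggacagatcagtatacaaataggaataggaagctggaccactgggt
Capitals mark a STAT word in the first and an AP-1 word in the last, and the middle one holds none of the 9 words that are set in capitals. The intron peak was at the 88.4th percentile of its own list in MRISC, the 90.4th in CD34 SP, the 35.2nd in CD138 and the 90.9th in Myofibroblast. Over the 241 regions of all members, 12.4% held an AP-1 word in their central 200 bases, where 9.88% of 50000 sampled regions did. It was in 11.5% of the Has1 and 10.0% of the Tnfaip6 regions. Over all members the STAT word was in 7.88%, against 6.25% of sampled regions, and TATAAA in 15.4%, against 11.6%. The RUNX word was in 9.96%, against 16.3%, and the NF-kB word in 16.6%, against 23.3%. None of these differences was tested.

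**Figure D4:**
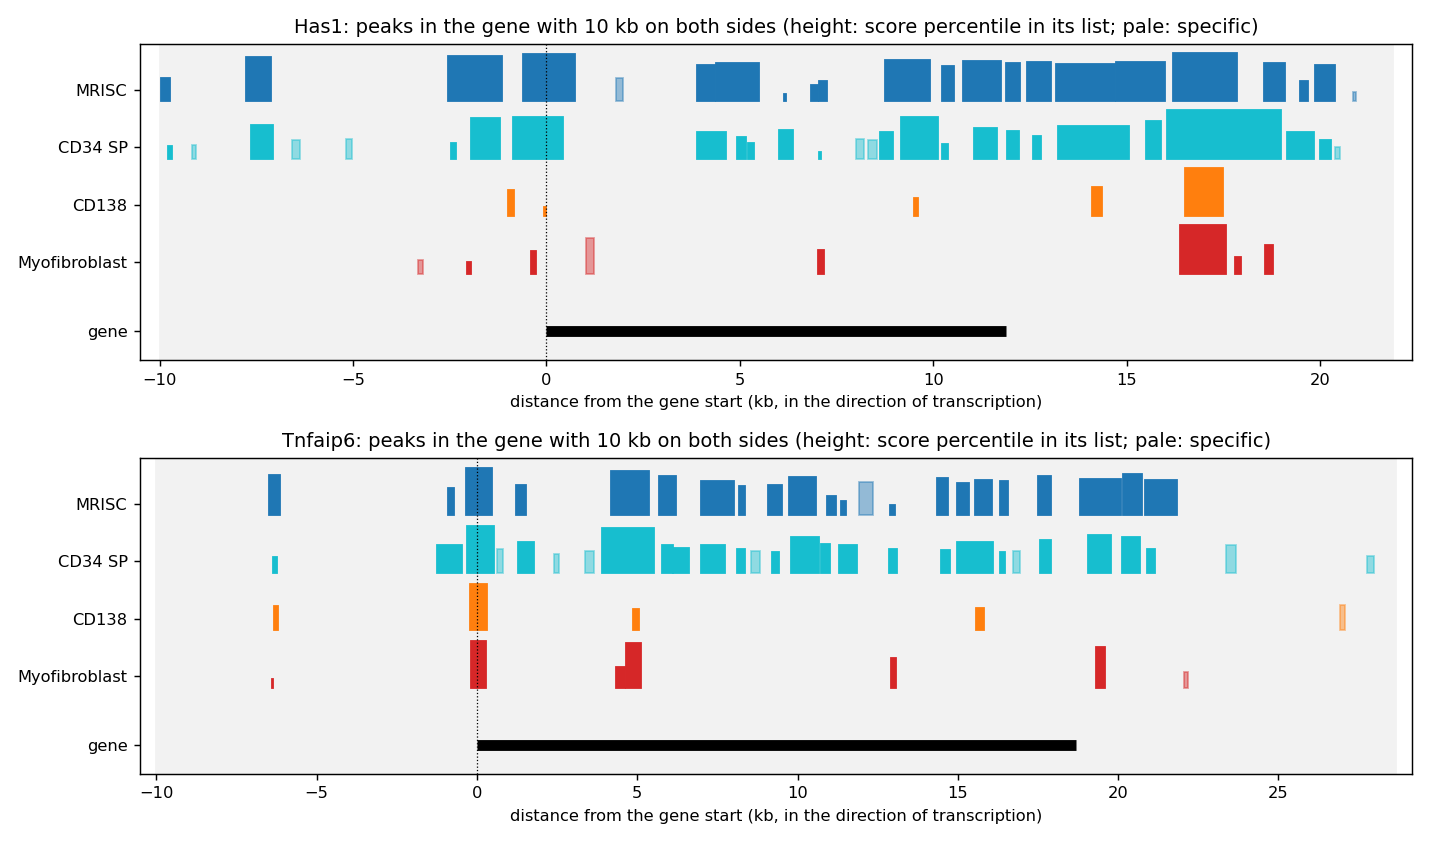
Peaks in the Has1 and Tnfaip6 windows by distance from the start (kb), with MRISC and CD34 SP above CD138 and Myofibroblast; height is the score percentile within a list, and pale peaks are specific to 1 population. MRISC and CD34 SP show 22 and 27 peaks at Has1, against 5 and 8 in CD138 and Myofibroblast.

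Of the wider list, 35 genes outside the members had at least 10 peaks, and 2 of them reached 2-fold by peaks, Gfpt2 and Uap1, a share near the 4.57% over all genes. Gfpt2 had 30 peaks in MRISC and 30 in CD34 SP, against 16 in CD138 and 14 in Myofibroblast, and Uap1 had 13 and 13, against 7 and 6. Ugdh had 9 and 8, against 7 and 6, and Ptx3 6 and 6, against 4 and 3. Cemip had 28 and 18, against 27 and 20. The sorted cells and the single cells differ in sex and in DSS, and which cluster matches which sorted population was not tested.

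**Figure D5:**
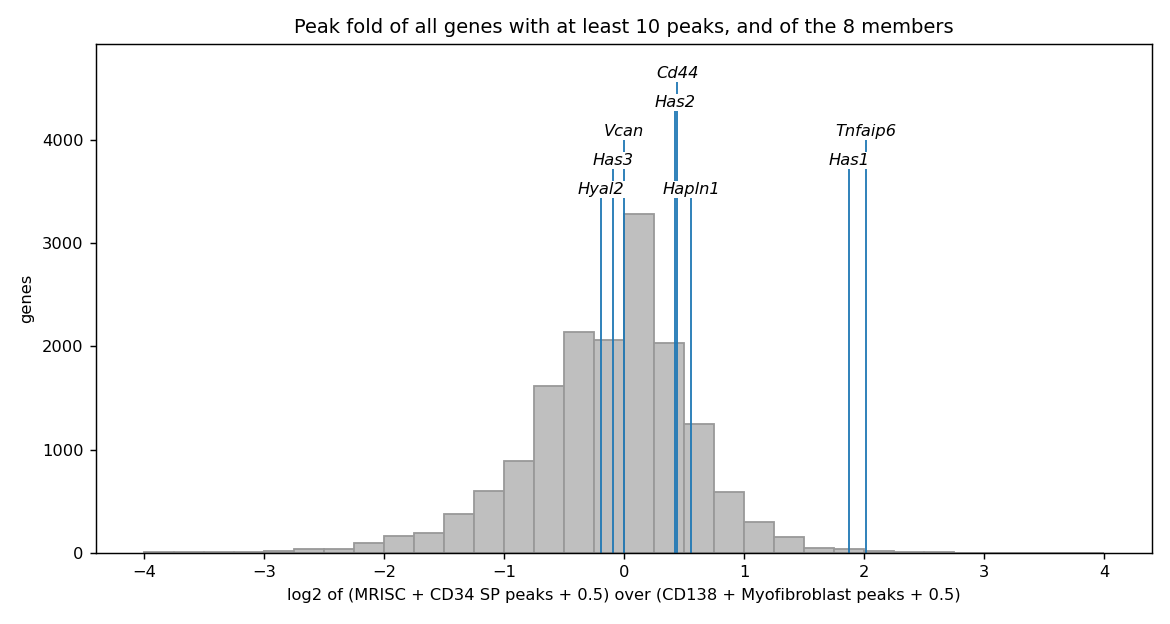
Number of genes by the log2 ratio of MRISC and CD34 SP peaks over CD138 and Myofibroblast peaks (with 0.5 added to each side), for 15984 genes with at least 10 peaks, with the 8 members as lines. Tnfaip6 (2.01) and Has1 (1.87) lie in the right tail, and the other 6 lie between -0.20 and 0.56.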

How the data were processed

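The members and all gene lists were chosen with earlier results of these data known. Single cells: the deposited matrices hold whole-number UMI counts, made by the authors with bcl2fastq, Cell Ranger (3.0.0 per the file headers) and Seurat on mm10, from a 10x 3' version 2 library, per the submitters' processing notes and the labels' protocols. The matrix had 11484 barcodes. Those under 500 genes or over 10% mitochondrial UMIs were dropped, which left 11376, with 5% of them under 2704 and 5% over 11586 UMIs. Counts were log-normalized and clustered (scanpy 1.11.5, leidenalg 0.10.2, 2000 variable genes without the hyaluronan lists, 30 components, 15 neighbours, resolution 0.5). A cluster took a name from at least 3 fixed markers. No doublet caller was run and no doublet removed. Genes with at least 1 CPM over all cells were tested for size. Free RNA was estimated from 546978 droplets of 1 to 100 UMIs by 26 immune and epithelial markers. Thinning to 3000 UMIs left out 736 cells, 243 of them adventitial. Shares carry exact binomial intervals.

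ATAC-seq: the deposited lists give 1 score per peak, which the authors made with bcl2fastq and bedtools among their tools on mm10, per the submitters' processing notes. What the score means, which caller was used and how the 2 libraries were combined is not stated there, so depth is unknown and scores only rank peaks within a list. Windows were gene bodies (GENCODE vM21) with 10 kb on both sides, and 1 shared base was an overlap. The interval search was tested on simulated peaks, and the call rule on simulated Poisson counts with changes well above the 2-fold mark. Changes near that mark, spread between cells and free RNA were not simulated. Words were searched on both strands: AP-1, CRE, STAT, TEAD, SP1 and RUNX as spelled in the text, the EBF word, the KLF word GGGTGTG and the TATA box (spelled TATAAA) in capitals. The E-box word CANNTG and the NF-kB word were searched too but not set in capitals. NF-kB and SP1 words can overlap, as at the Cd44 start. RefSeq promoters were matched by symbol for 6 of 8 members. Genes most like a member are the 3 with the highest correlation over clusters among genes with at least 20 CPM in 1 cluster.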

Additional observations from a re-analysis of the deposited data

How the results depend on the processing

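No paired analysis was possible because each sorted population has 1 peak list and the single cells are 1 library. The highest cluster of Has1, Has2, Hapln1, Cd44 and Tnfaip6 took over 50% of its cells from the same cluster at resolution 1.0, without the cell filter, with the members among the variable genes, after free RNA was subtracted (Has1 663 CPM in the adventitial cluster) and without the top 10% of cells by UMIs (535 CPM), an alternative chosen after seeing the data; that of Has3, Vcan or Hyal2 moved under some of these. Members called higher were 5 in each of these but 4 without the cell filter, where Has2 lost its call (1.74-fold). Leaving the adventitial cluster out of the other cells, other free RNA rates and the mesothelium-like cluster without its top Has1 cell were also chosen after seeing the data, and their values stand in the results. Of 8 members, 5 were read in at least 10% of cells, but 3 after thinning to 3000 and 3 at 2000 UMIs. Co-detection above 1 by interval fell to 5 pairs after thinning, against 11 without it and 10 without the top 10% of cells. Within thinned clusters it was 2 of 15 pairs in the adventitial, 1 of 21 in the lamina propria and 0 in the Cxcl13 Fgf12, Spock3 Aldh3a1, inflamed, smooth muscle and crypt-top clusters. Total peaks summed over the members were 120, 157, 93 and 82 in MRISC, CD34 SP, CD138 and Myofibroblast. They moved to 217 in MRISC, 181 in CD138 and 160 in Myofibroblast with 50 kb, to 76, 71, 55 and 52 above the median score, and to 49 in Myofibroblast with gene bodies only. Has1 and Tnfaip6 remained the 2 members over 2-fold by peaks in each of these and in lists of equal length, at 2.28 for both at the lowest (50 kb). With an overlap of 50% of both peaks, the share of member peaks in common was 16.7% for MRISC with CD138 (21.3% over all peaks), 12.5% for MRISC with Myofibroblast (12.8%), 13.4% for CD34 SP with CD138 (25.7%), 9.55% for CD34 SP with Myofibroblast (13.9%), 21.5% for CD138 with Myofibroblast (13.6%) and 48.3% for MRISC with CD34 SP (31.9%). Fewer shared bases follow from the stricter rule itself; the causes of the other shifts were not tested. Wide windows reach neighbouring genes, and levels from 1 mouse library cannot show the spread between animals.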

Other observations

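Of the 3 clusters that were not stromal, the Jchain Igkc cluster (291 cells) had 257 CPM of Vcan, 200 CPM of Tnfaip6 and 20.5 CPM of Has1, and a UMI of Pdpn in 73.5% of its cells. The Reg3g Reg3b cluster (24 cells) had 25.2 CPM of Hyal2, 42.0 CPM of Cd44 and 1.68 CPM of Has1, with Epcam in 100% of its cells. Empty droplets held 163 CPM of Has1 and 474 CPM of Tnfaip6, against 90.5 and 352 CPM in the stromal clusters, while Hapln1 was at 19.7 CPM in them, against 29.3 CPM in the stromal clusters.

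Among partners in the wider list, Itih5, a relative of the heavy chains of inter-alpha-inhibitor, was at 434 CPM in the inflamed cluster and called lower in the smooth muscle (89.7 CPM), crypt-top (126 CPM) and mesothelium-like (76.8 CPM) clusters. Itih1, Itih2, Itih3, Itih4 and Ambp, whose products circulate from the liver, were between 0 and 4.11 CPM over all cells.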
